A study of Mus musculus with 6 samples.

Results

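The genes described are 10 protein methyltransferases of skeletal muscle, picked by name and looked up through their Ensembl gene IDs. They are the SMYD enzymes Smyd1, Smyd2, Smyd3 and Smyd5, the related SET-domain enzymes Setd3 and Setd7, and the arginine methyltransferases Prmt1, Prmt5, Prmt7 and Carm1. Of the 10, 9 were matched to a row among the 41025 genes of the files. All 9 were among the 11383 genes that were tested because their mean reached 1 FPKM. The ID that the annotation used here gives for Prmt1 matched no row, so Prmt1 was not analysed here. Since 573 of the 41025 IDs matched no symbol, Prmt1 may have a row under another ID. The tissue was tibialis anterior, a muscle at the front of the lower hindlimb that consists largely of fast fibres, and the mice were C57BL/6 aged 8 weeks. Genotype labels name 3 libraries as wild type and 3 as Mettl21e knockout; these are called WT-labelled and KO-labelled here. Comparing them addresses how transcript levels change when Mettl21e, the gene of a muscle-enriched lysine methyltransferase, is deleted. The series calls its replicates biological. The sources used here do not give how the deletion was made, in which cells it acts, or how many mice went into a library, and p-values here reflect only how much these libraries vary, which may be technical.

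Protein methyltransferases move a methyl group from S-adenosylmethionine to a side chain of another protein. SMYD enzymes carry a SET domain split by a zinc-binding MYND domain, and SMYD1 and SMYD2 are known for their work on sarcomere assembly and on the chaperone HSP90 in muscle. SETD3 methylates a histidine of actin, SETD7 methylates lysines of histone H3 and of several transcription factors, and PRMT5, PRMT7 and CARM1 methylate arginines of histones, splicing proteins and muscle regulators.

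FPKM values are fragment counts divided by gene length and by the total of the library. The library totals recovered from the values lay between 8476591 and 10856669 fragments. Mettl21e itself did not tell the labels apart, with 2.46, 0.309 and 1.23 FPKM in WT-labelled libraries 1, 2 and 3 and 1.64, 1.45 and 1.88 FPKM in the KO-labelled ones (exact two-sided permutation p = 0.700). The directions below are therefore between libraries as labelled. The 8 fast fibre markers, among them Ckm and Myh4, summed to 76929 to 84983 FPKM in a library, against 242 to 549.5 FPKM for 6 slow fibre markers. Markers of fibroblasts and of leukocytes had lower means in the KO-labelled libraries for 7 of 7 and 8 of 8 genes. Their sums were 215 to 447 against 222 to 306 FPKM and 31.7 to 202 against 29.8 to 51.6 FPKM (WT-labelled first). The 6 slow fibre and 5 adipocyte markers also had lower means there, each without exception. Slow fibre markers differed most, at a median log2 difference of -1.28 (-1.92 to -0.25), against -0.69 for tested leukocyte and -0.50 for fibroblast markers. Their sums overlapped, at 272 to 549.5 against 242 to 359.6 FPKM, and their adjusted limma p was at least 0.988. Of all 11383 tested genes, 6450 had the lower mean in the KO-labelled libraries on the log2 scale. The part of other cell types in the results below was not tested, and in whole muscle fewer cells of a type and less RNA per cell cannot be told apart.

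The 9 genes spanned a wide range of levels and kept the same order in every library. Prmt1 aside, on the deposited FPKM scale the order by mean over the 6 libraries was Smyd1 (361 ± 28.6, SD, n = 6), Smyd2 (110.3 ± 10.2), Setd7 (89.6 ± 5.70), Setd3 (72.3 ± 4.17), Prmt5 (37.8 ± 2.37), Prmt7 (28.3 ± 2.0), Carm1 (24.1 ± 2.34), Smyd5 (7.06 ± 1.23) and Smyd3 (2.87 ± 0.366). On this scale the level of Smyd1 was thus 125 times that of Smyd3. Each gene lay above the next in all 6 libraries. The ranges over libraries of neighbours did not overlap, except those of Prmt7 (25.2 to 30.7 FPKM) and Carm1 (21.4 to 27.7 FPKM). Among all tested genes, Smyd1 stood at the percentiles 98.0 to 98.4 of a library, Prmt5 at 82.1 to 84.3, and Smyd3 at 14.4 to 24.8.

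**Figure D1:**
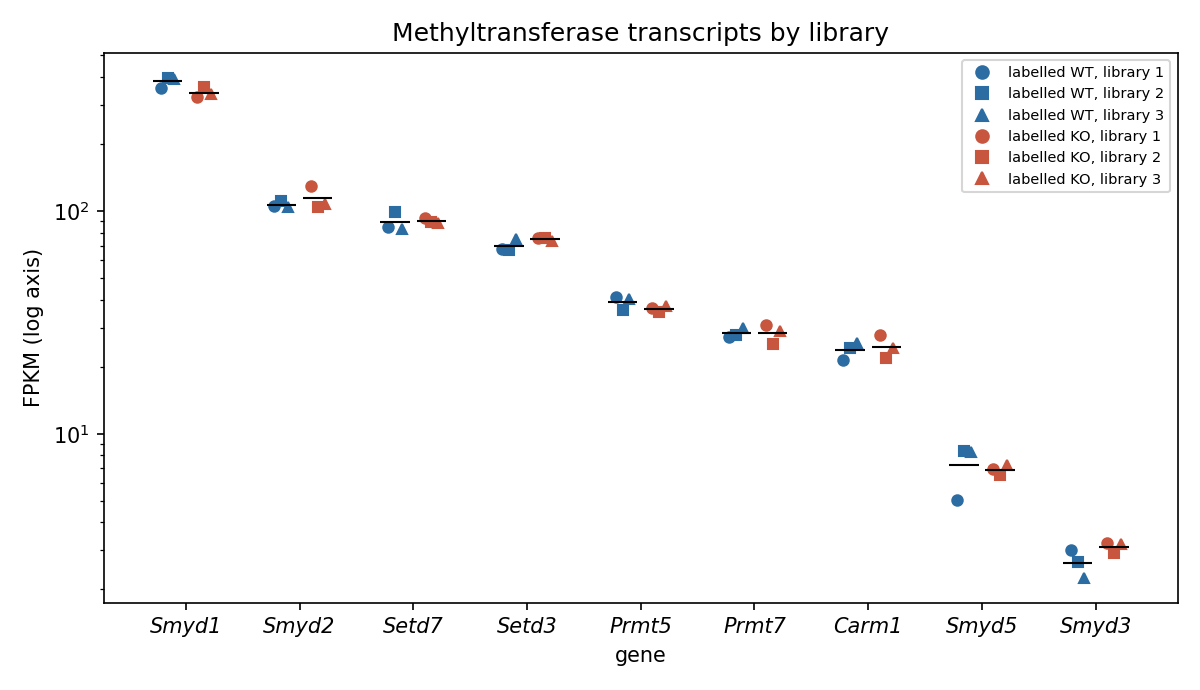
FPKM of the 9 genes in each library on a log axis, with WT-labelled libraries in blue, the KO-labelled ones in red, marker shapes for the library number and a black line at each label's mean (n = 3). Smyd1 lies highest, between 326 and 396 FPKM, Smyd3 lies lowest, between 2.26 and 3.22 FPKM, and the labels overlap for every gene.

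The middle of this order depends on the gene length that FPKM divides by. The length behind the deposited values could be recovered exactly, and for 8 of the 9 genes it was within 1 base of the mean length of the annotated transcripts, short transcript models included; this held for 66.5% of the 11354 tested genes with annotated transcripts. For Setd7, which has 4 annotated transcripts of 423 to 7411 bases, the length used was 2879 bases. With the longest transcript as the length, Setd3 (39.4 ± 2.27, SD, n = 6, as FPKM) came above Setd7 (34.8 ± 2.22) in 5 of 6 libraries. With the exon union, Prmt5 (10.6 ± 0.663) and Carm1 (10.4 ± 1.01) were ordered 1 way in 3 of 6 libraries, and Prmt7 (7.02 ± 0.497) lay below both. Smyd1 and Smyd2 in first and second place and Smyd5 and Smyd3 at the end held under all 3 lengths. The distance between the ends did not: Smyd1 was at 184 times Smyd3 with the exon union and 186 times with the longest transcript.

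**Figure D2:**
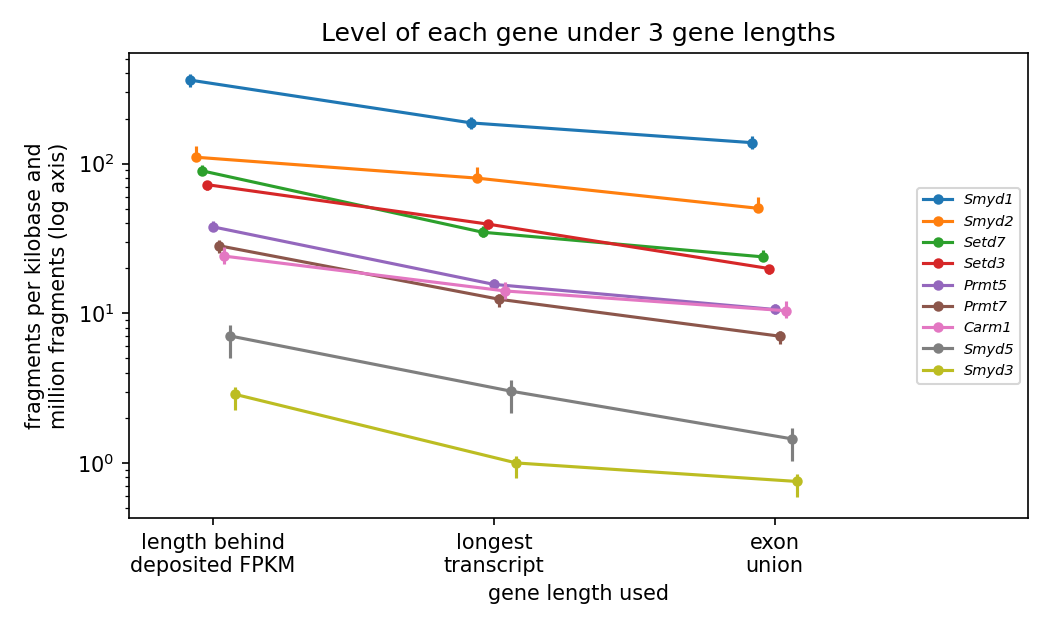
Mean level of each gene over the 6 libraries (points) and its range (vertical bars), as FPKM on a log axis, under 3 gene lengths. The lines of Setd7 and Setd3 cross at the longest transcript, and those of Prmt7 and Carm1 cross as well, while Smyd1 (361, 187 and 138 from left to right) stays on top.

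Between labels, none of the 9 genes passed limma's test over all 11383 genes (adjusted p of at least 0.988 for each). The whole table had 0 genes past the test (0.00%), and limma's voom on the recovered fragments also gave 0, with 468 at an unadjusted p under 0.05. At an unadjusted limma p under 0.05, 523 genes were found (4.59%; 1.28% higher and 3.31% lower in KO-labelled libraries), and 0 of the 9. Of the 523, 27.9% had the higher mean in KO-labelled libraries, and after subtraction of each library's median 54.5% of 545 did. The labels did not overlap for 1079 tested genes (9.48%; 3.84% higher and 5.64% lower) and for 0 of the 9. Of the 9 genes, 5 had higher and 4 lower means on the log2 scale, where all tested genes had 4933 higher and 6450 lower. The median log2 difference of the 9 was 0.03, and that of all tested genes was -0.02. Smyd5 (-0.03) and Prmt7 (-0.00) turned from lower to higher after median subtraction, at 0.02 and 0.05. On the log2(FPKM + 1) scale the 95% intervals reached at most 0.48 upward, for Smyd3, and -0.43 downward, for Smyd5. These limits hold for that scale only, which understates changes of low genes. With 0.01 added in place of 1, Smyd3 was at 0.24 (SE 0.18, against 0.13) and Smyd5 at -0.03 (SE 0.20, against 0.17).

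**Figure D3:**
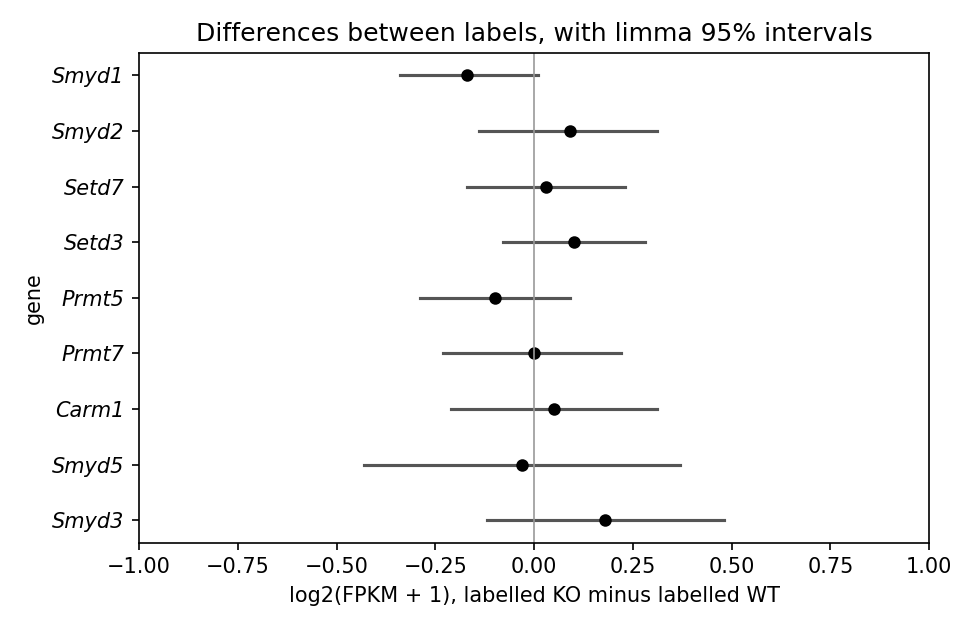
Difference between labels for each gene, on the log2(FPKM + 1) scale, KO-labelled minus WT-labelled (points), with limma's 95% intervals (lines; 3 libraries per label). All 9 intervals include 0, and that of Smyd1, from -0.34 to 0.01, does so by the smallest margin.

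Smyd1, the gene of a striated-muscle lysine methyltransferase that works with HSP90 in myosin folding and thick-filament assembly, was the most abundant of the genes. Its annotated position in mm10 is chr6:71213940-71322233 (minus strand), where it shares no exon bases with other genes. It was at 358, 396 and 391 FPKM in WT-labelled libraries 1, 2 and 3 (6711, 7510 and 6027 fragments) and at 326, 359.7 and 334 FPKM in the KO-labelled ones (5530, 6550 and 4935 fragments). WT-labelled libraries 2 and 3 were the highest of the 6, and the labels overlapped only because WT-labelled library 1 lay just under KO-labelled library 2. The means were 382 ± 20.9 and 339.9 ± 17.5 FPKM (SD, n = 3 each), a log2 difference of -0.17 (SE 0.08, limma unadjusted p = 0.0632, adjusted p = 0.988). As a ratio this was 0.891, with a 95% interval of 0.788 to 1.01. The exact two-sided permutation p was 0.200, and 3 against 3 libraries cannot go below 0.1. Without WT-labelled library 1 the log2 difference was -0.21 (limma unadjusted p = 0.0263, adjusted p = 0.346), in a fit where 1356 genes had an unadjusted p under 0.05. Leaving out any other library gave -0.21 to -0.14, with limma unadjusted p of 0.0588 to 0.169. After subtraction of each library's median the difference was -0.12 (limma unadjusted p = 0.180).

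The 250 bases before 1 RefSeq start site each of Smyd1 and Smyd2 are shown because these 2 genes head the order of levels and the windows differ in base composition. Both are read 5′ to 3′ on the gene's strand from RefSeq (GRCm38.p6, the assembly of mm10), at chr6:71262282-71262531 and chr1:189922292-189922541, both on the minus strand. The 2 windows are not placed alike. That of Smyd1 lies inside the annotated gene, whose 5′ end is at 71322233, and sequence before that end was not examined. That of Smyd2 covers the annotated 5′ end of its gene, at 189922363. Capitals mark CG dinucleotides, the sites of most DNA methylation in mammals.
Smyd1: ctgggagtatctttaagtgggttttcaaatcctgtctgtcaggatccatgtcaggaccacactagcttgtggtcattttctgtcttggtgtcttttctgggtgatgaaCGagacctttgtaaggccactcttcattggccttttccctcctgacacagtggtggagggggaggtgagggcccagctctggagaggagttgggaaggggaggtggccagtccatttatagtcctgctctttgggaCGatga
Smyd2: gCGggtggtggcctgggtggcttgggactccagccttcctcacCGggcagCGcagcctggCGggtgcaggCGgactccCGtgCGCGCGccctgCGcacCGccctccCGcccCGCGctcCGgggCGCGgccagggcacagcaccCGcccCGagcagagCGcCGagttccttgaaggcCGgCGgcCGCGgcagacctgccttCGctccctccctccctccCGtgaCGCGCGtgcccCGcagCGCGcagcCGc
Smyd1 has 2 CG dinucleotides and 51.6% G and C in this window, and Smyd2 has 34 and 78.8%. Over 32851 such windows the median was 6 CG dinucleotides, and 29.0% had as few as Smyd1 or fewer. Of the 9 genes, 7 had an entry (not Smyd3 or Carm1), and the other 5 of these had 10 to 35 CG dinucleotides. The Smyd1 window, which lies inside its gene, thus had the fewest. The letters CANNTG (the E-box of myogenic factors, the same on both strands) occur in neither sequence shown and in 66.2% of all windows. These are descriptions of the windows only; no methylation or binding was measured.

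Smyd2 encodes a lysine methyltransferase that acts on HSP90 and is linked to titin stability at the sarcomere (chr1:189880492-189922363, minus strand). It was at 105, 111 and 104 FPKM in WT-labelled libraries 1, 2 and 3 and at 130.2, 104 and 108 FPKM in the KO-labelled ones. KO-labelled library 1 stood alone at the top, and the other 5 lay within 104 to 111 FPKM. On the log2 scale the labels differed by 0.09 (SE 0.10, limma adjusted p = 0.988), which turned to -0.01 without that library. The antisense gene Gm37422 shares 814 exon bases with Smyd2 at a mean of 1.10 FPKM, and since the sources used here state no strand setting, reads of the pair cannot be told apart.

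Smyd5 and Smyd3, which encode histone and cytoplasmic lysine methyltransferases (chr6:85431989-85446435, plus strand, and chr1:178951960-179518041, minus strand), were the 2 lowest of the 9 genes; Smyd4, no member, lay between them at 4.76 to 5.85 FPKM. Smyd5 was at 5.02, 8.34 and 8.27 FPKM in the WT-labelled libraries and at 6.93, 6.53 and 7.25 FPKM in the KO-labelled ones, so the 3 WT-labelled held both the lowest and the highest values. Its coefficient of variation over the 6 libraries was 17.5%, the highest of the 9 genes, where counting error alone gives 11.1% at 65 to 109 fragments. The exact Poisson interval (95%) of the lowest library, 3.88 to 6.40 FPKM, does not reach those of the highest 2 (from 6.85 and 6.63 FPKM). These libraries were picked as extremes of the 6, and intervals of extremes separate more often than those of libraries chosen beforehand. Smyd3 was at 3.02, 2.65 and 2.26 FPKM in the WT-labelled libraries and at 3.22, 2.91 and 3.19 FPKM in the KO-labelled ones. Its log2 difference was the largest positive one of the 9 with all libraries (0.18, SE 0.13, limma adjusted p = 0.988), but 0.10 without WT-labelled library 3, where Setd3 had 0.16. With 48 to 78 fragments per library, its coefficient of variation of 12.7% stood beside 12.3% from counting error alone.

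Smyd1 made up most of the SMYD transcripts, counted as summed FPKM of Smyd1 to Smyd5. Its share was 75.3%, 75.7% and 76.5% in the WT-labelled libraries and 69.2%, 75.2% and 72.9% in the KO-labelled ones. Every KO-labelled library thus lay below every WT-labelled library. The means were 75.8% ± 0.624 and 72.4% ± 3.02 (SD, n = 3 each), a difference of -3.43 percentage points with an exact two-sided permutation p of 0.1, the smallest that 3 against 3 can give. Adjusted over the 9 shares tested it was 0.540. Without KO-labelled library 1, which had the lowest Smyd1 and the highest Smyd2, the difference was -1.81 percentage points. The ratio of Smyd1 to Smyd2 was 3.42, 3.56 and 3.76 in the WT-labelled libraries and 2.51, 3.46 and 3.10 in the KO-labelled ones, which overlap (difference of mean log2 ratios -0.26, exact permutation p = 0.200, 0.600 adjusted over 3 ratios), and the difference was -0.13 without KO-labelled library 1. Per kilobase of the exon union the mean share of Smyd1 was 73.6% in WT-labelled and 70.0% in KO-labelled libraries.

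**Figure D4:**
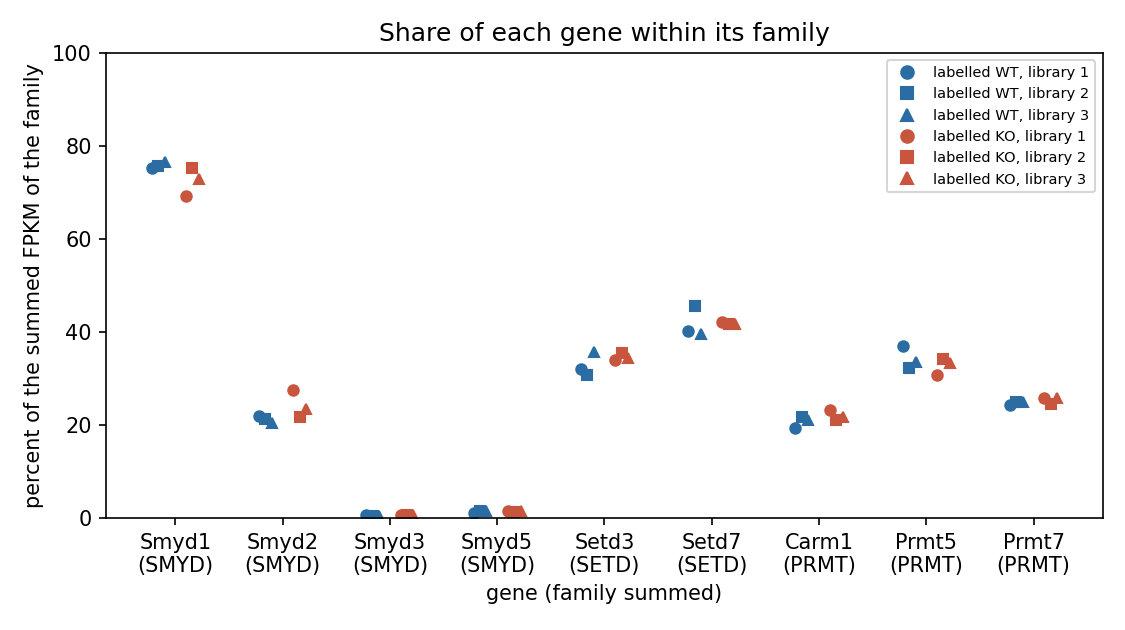
Percent of the summed FPKM of its family held by each gene, per library, with families SMYD (5 genes), SETD (10 genes) and PRMT (8 genes, Prmt1 not among them). The KO-labelled points of Smyd1 (69.2% to 75.2%) lie below the WT-labelled ones (75.3% to 76.5%), and the labels overlap for the other 8 genes.

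Setd3, Setd7 and Prmt5 had the smallest coefficients of variation of the 9 genes, and Setd7 and Setd3 were the highest in level among the 10 genes named Setd or Setdb that were summed. Setd3, the actin histidine methyltransferase (chr12:108106431-108179314, minus strand), was at 67.5, 66.6 and 75.2 FPKM in the WT-labelled libraries and at 75.6, 75.6 and 73.1 FPKM in the KO-labelled ones. WT-labelled library 3 lay among the KO-labelled libraries, and the other 2 lay below them (log2 difference 0.10, SE 0.08, limma adjusted p = 0.988). Setd7, a lysine methyltransferase with histone and non-histone targets that is linked to myogenic differentiation (chr3:51515319-51560879, minus strand), was at 84.7, 98.6 and 83.3 FPKM and at 93.4, 89.0 and 88.3 FPKM. The KO-labelled libraries lay inside the range of the WT-labelled ones, and the log2 difference was 0.03 (SE 0.09). Their coefficients of variation were 5.77% and 6.37%, against 2.92% and 2.0% from counting. Of that sum, which leaves out Kmt5a (81.0 to 91.6 FPKM), Setd7 held 39.6% to 45.7% and Setd3 30.8% to 35.8% of the FPKM in a library. The ratio of Setd3 to Setd7 lay between 0.675 and 0.903 in the WT-labelled libraries and between 0.809 and 0.849 in the KO-labelled ones (exact permutation p = 0.700).

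The arginine methyltransferases Prmt5, Prmt7 and Carm1 lay close together in level. Prmt5, whose enzyme places symmetric dimethylarginine on histones and Sm proteins (chr14:54507187-54517525, minus strand), was at 41.1, 36.1 and 40.3 FPKM in the WT-labelled libraries and at 36.7, 35.3 and 37.4 FPKM in the KO-labelled ones. WT-labelled libraries 1 and 3 were above all others, and library 2 fell among the KO-labelled ones (log2 difference -0.10, SE 0.08, limma adjusted p = 0.988). Prmt7, a monomethylating enzyme linked to muscle oxidative metabolism and satellite cells (chr8:106210936-106252794, plus strand), was at 27.1, 27.8 and 29.9 FPKM and at 30.7, 25.2 and 29.0 FPKM. Its label means were both 28.3 FPKM, and the 95% interval of the ratio of KO-labelled to WT-labelled was 0.855 to 1.17. Carm1, a transcriptional coactivator that places asymmetric dimethylarginine and is linked to autophagy and mitochondrial control in muscle (chr9:21546894-21592623, plus strand), was at 21.4, 24.2 and 25.5 FPKM and at 27.7, 21.8 and 24.3 FPKM. Its lowest library was 1 of the WT-labelled ones and its highest 1 of the KO-labelled ones, with a log2 difference of 0.05 (SE 0.11). Carm1 shares 1025 exon bases with Yipf2 on the other strand, which had a mean of 2.67 FPKM. Prmt7 shares 247 with Smpd3 (0.28 FPKM), and Setd7 shares 131 with 5031434O11Rik (1.01 FPKM).

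Other members of the PRMT family were lower. Prmt3, which methylates a ribosomal protein, was at 14.5 ± 1.54 and 13 ± 1.51 FPKM (WT-labelled, then KO-labelled; SD, n = 3 each), and the mitochondrial arginine methyltransferase gene Ndufaf7 at 7.27 ± 0.480 and 7.31 ± 0.948 FPKM. Named with their values in view, Prmt6 was at 0.674 to 0.951 FPKM, and Prmt8, a brain enzyme, was above 0 in 1 library, at 0.0683 FPKM. Of the 8 PRMT genes summed, Prmt5 held 30.8% to 37.1% of the FPKM in a library, Prmt7 24.4% to 25.9% and Carm1 19.3% to 23.2%; these shares leave out Prmt1. The PRMT5 partner Wdr77, which encodes MEP50, was at 3.80 to 5.81 FPKM. On the deposited FPKM scale Prmt5 stood at 6.67 to 10.6 times its level, and this ratio overlapped between labels (exact permutation p = 0.700). The size of the ratio depends on the gene lengths, and other lengths were not tried for it. Before division by length, Prmt5 had 351 to 490 fragments in a library and Wdr77 had 71 to 132.

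The wider methylation machinery was read through 10 lists of 121 genes in all, of which 115 were tested. None passed limma's test over all genes. At an unadjusted p under 0.05, 2 genes had higher and 2 had lower values in the KO-labelled libraries (3.48% of the 115, beside 4.59% of all genes), and the labels did not overlap for 10 (8.70%, beside 9.48%). The median log2 difference over these genes was 0.00. The counts of higher and lower genes below stand beside 4933 higher and 6450 lower of all 11383 tested genes. By list, the other SMYD and SETD genes counted 5 higher and 5 lower of 10 (Kmt5a, the histone H4 lysine methyltransferase, at 85.6 ± 5.40 and 87.2 ± 5.35 FPKM, and Setd2 at 12.7 ± 0.853 and 12.9 ± 0.422 FPKM, WT-labelled first). Chromatin lysine methyltransferases counted 8 higher and 12 lower of 20, with Dot1l, which acts on histone H3, at 27.0 ± 0.576 and 24.9 ± 4.59 FPKM and Ehmt2, the G9a gene, at 26.5 ± 3.70 and 24.9 ± 1.83 FPKM. The list of lysine demethylases counted 7 higher and 10 lower of 17, with Kdm2a at 20.3 ± 1.03 and 20.6 ± 1.94 FPKM. That list also held Jmjd6, which is not an established lysine demethylase, at 15 ± 1.05 and 15.1 ± 2.25 FPKM. The other PRMT genes counted 2 higher and 2 lower of 4, and cofactors of PRMT enzymes 4 higher and 2 lower of 6, with Clns1a, which guides PRMT5 to Sm proteins, at 14.1 ± 0.920 and 14.7 ± 0.773 FPKM and Btg2 at 8.44 ± 2.49 and 6.92 ± 3.39 FPKM. All of these had a limma adjusted p of at least 0.988.

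Partners and substrates of the enzymes were also without a call. Sarcomere and chaperone partners of SMYD1 and SMYD2 counted 7 higher and 3 lower of 10 (median log2 difference 0.05). The HSP90 gene Hsp90ab1 was at 1040.3 ± 56.8 and 1004 ± 48.2 FPKM and the M-band gene Myom2 at 544 ± 51.3 and 589 ± 97.5 FPKM. The myosin chaperone gene Unc45b, picked with its values in view, stood at 98.9 to 108 FPKM in all 6 libraries. Of the M-band genes, Myom1 was at 244, 269 and 267 FPKM in the WT-labelled libraries and at 319, 296 and 285 FPKM in the KO-labelled ones, which do not overlap (log2 difference 0.21, SE 0.08, limma unadjusted p = 0.0301, adjusted p = 0.988). Myom1 was also picked with its values in view. Its unadjusted limma p was not under 0.05 when WT-labelled library 1 or 3, or KO-labelled library 1 or 2, was left out. The actins, substrates of SETD3, counted 1 higher and 5 lower of 6. Acta1, the skeletal muscle actin, was at 17579.6 ± 1736 and 15539 ± 1641 FPKM, and Actb at 330.0 ± 97.2 and 301 ± 30.9 FPKM.

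RNA-binding and Sm proteins that carry methylarginine counted 11 higher and 5 lower of 16, with Hnrnpa2b1 at 319 ± 22.8 and 338 ± 17.5 FPKM and Hnrnpk at 134 ± 5.10 and 135 ± 7.99 FPKM. Muscle regulators reported as substrates or targets of arginine methylation counted 6 higher and 5 lower of 11. Mef2c, a myogenic transcription factor gene, was at 282, 291 and 267 FPKM in the WT-labelled libraries and at 308, 315 and 315 FPKM in the KO-labelled ones. The labels did not overlap for Mef2c (log2 difference 0.16, SE 0.07, limma unadjusted p = 0.0498, adjusted p = 0.988), and its unadjusted p rose above 0.05 when any single library was left out. Genes of the S-adenosylmethionine cycle, which supplies the methyl donor, counted 8 higher and 7 lower of 15. Mat2a, the enzyme that makes S-adenosylmethionine outside the liver, was at 131 ± 12.7 and 131 ± 9.12 FPKM, and its regulatory partner Mat2b at 56.7 ± 6.09 and 61.9 ± 3.43 FPKM. The liver enzyme Mat1a, also picked with its values in view, was listed at 0 in all 6 libraries. All lists were chosen with earlier results of these data known.

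The genes whose profile over the 6 libraries lay closest to that of Smyd1 were Rnf181, a ubiquitin ligase gene, Prkar1a, a regulatory subunit of protein kinase A, and Pgls, an enzyme gene of the pentose phosphate pathway. Closeness was the root mean square difference of log2(FPKM + 1), each gene centred on its own mean, over 5276 genes whose mean reached 10 FPKM. It was 0.015, 0.022 and 0.033 for these 3 genes, against a median of 0.158, and values under the median follow from picking the closest genes. For Smyd5, the gene with the largest spread among the 9, they were Ahdc1, Cdh5 and Arhgef10l (0.049, 0.053 and 0.057, median 0.244). Cdh5, the endothelial cadherin, was at 24.8, 41.7 and 37.3 FPKM in the WT-labelled libraries and at 35.0, 30.7 and 34.8 FPKM in the KO-labelled ones. WT-labelled library 1 was its lowest, as for Smyd5, which follows from picking Cdh5 by its profile. The 6 endothelial markers, Cdh5 among them, had their lowest sum in that library, at 126 FPKM, against 149 to 178 FPKM in the other 5. Fibroblast and satellite cell markers also had their lowest sums there, at 215 and 7.96 FPKM, and those of the other cell types did not. The part of these cell types in the spread of Smyd5 was not tested.

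**Figure D5:**
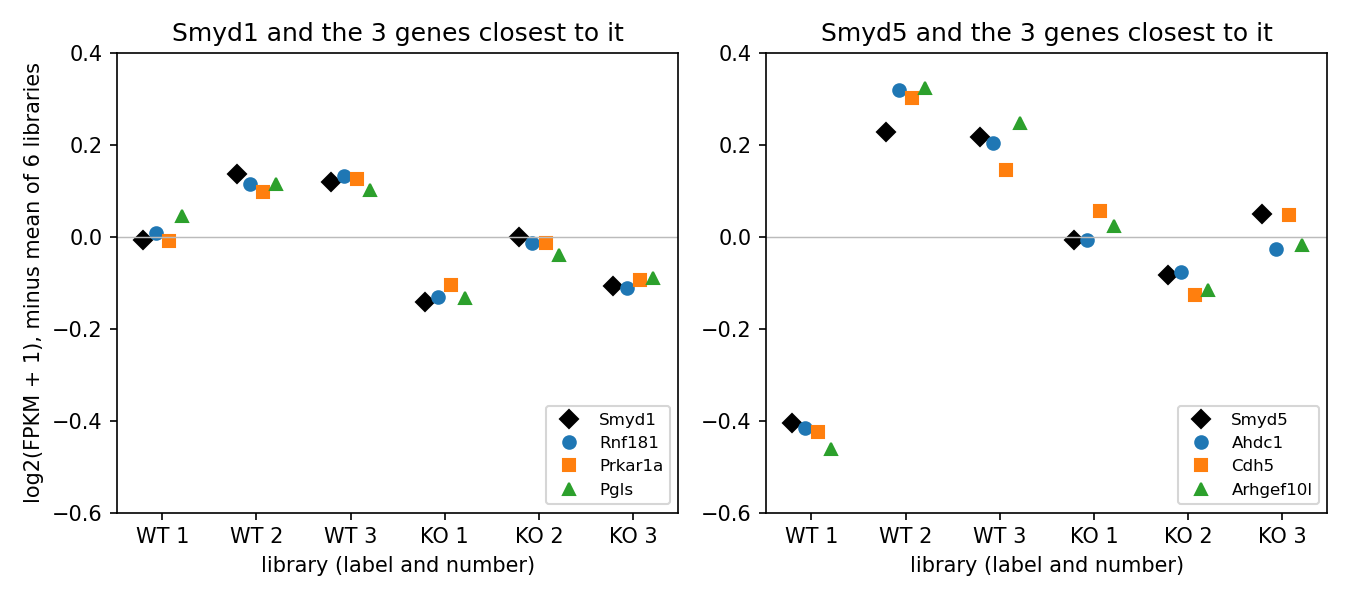
Deviation of log2(FPKM + 1) from each gene's mean over the 6 libraries, for Smyd1 and Smyd5 (black) and the 3 genes closest to each (coloured). The Smyd1 group lies highest in WT-labelled libraries 2 and 3, and the Smyd5 group lies lowest in WT-labelled library 1. That each group moves together follows from how its genes were picked.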

How the data were processed

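Total RNA of tibialis anterior muscle was sequenced in 6 libraries, 3 per label. The authors deposited FPKM per gene, 1 table per library; build mm10, Cufflinks 2.2.1 and TopHat2 2.1.1 are named, per the submitters' processing notes. The sources used here do not give their roles, the annotation, the strand setting or filters. Of 41025 genes, 40452 matched a symbol in GENCODE vM21, on the same assembly. Library numbers came from the sample titles.

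Whole fragments were recovered by finding, for each of the 11383 tested genes, the smallest gene length that made all 6 values whole within 0.002 of a fragment; this succeeded for 100.0% of them. Poisson intervals cover counting error only. The main test was limma 3.58.1 (R 4.3.3) with a mean-variance trend on log2(FPKM + 1), over genes whose mean reached 1 FPKM, with Benjamini-Hochberg adjustment over all of them and a threshold of 0.05; the script was tested on simulated data. The log2(FPKM + 1) scale understates changes of low genes. Shares and ratios were compared by exact two-sided permutation. Of 5 planned ratios, 2 needed Prmt1 and were not computed, and no protein sequences were used. Named genes were the members, Mettl21e, the 2 tested genes with the highest mean of each list, and the 3 genes closest in profile to Smyd1 and to the member with the largest SD; others are marked as named after their values were seen. One gene that this rule names is not reported here. The alternatives were other scalings, pseudocounts, filters, variance models, voom on the fragments, a replicate block and leaving out each library; other gene lengths, and the block for the lists, were added after seeing the data. The members and lists were chosen with earlier results of these data known. Python 3.11.15, pandas 2.3.3, numpy 2.4.6, scipy 1.17.1 and matplotlib 3.10.9 were used.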

Additional observations from a re-analysis of the deposited data

How the results depend on the processing

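For the 9 genes, 0 of 134 values under the alternatives passed the adjusted test (lowest limma adjusted p = 0.346, Smyd1 without WT-labelled library 1), and 120 of 134 kept the direction of the log2 difference. Smyd1, Smyd3, Setd3 and Prmt5 kept it throughout. Subtracting library medians and quantile normalization turned Smyd5 to 0.02 and 0.01 and Prmt7 to 0.05 and 0.03. Leaving out 1 library gave -0.01 to 0.15 for Smyd2, -0.24 to 0.08 for Smyd5, -0.02 to 0.10 for Setd7, -0.06 to 0.08 for Prmt7 and -0.04 to 0.13 for Carm1. Leaving out 1 library also moved the difference in the Smyd5 share between -0.134 and 0.147 percentage points, in the Setd7 share between -1.09 and 1.94, in the log2 ratio of Prmt5 to Wdr77 between -0.23 and 0.06 and in that of Setd3 to Setd7 between -0.03 and 0.18. The Setd7 share turned to -1.27 percentage points when summed over the members only and to -0.122 per kilobase of the longest transcript. The cause of these turns was not tested.

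Over all genes, 0 to 3 passed the adjusted test with 1 library left out (1 without WT-labelled library 1, 3 with WT-labelled library 3 dropped, 1 with KO-labelled library 3 dropped) and 0 otherwise. At an unadjusted p under 0.05 there were 342 to 1356 genes with 1 library left out (1356 without WT-labelled library 1, 344 when WT-labelled library 3 was dropped, 342 when KO-labelled library 2 was), 987 of 23559 with no filter and 339 of 7416 with a mean of at least 5 FPKM. Same-numbered libraries did not deviate together over all tested genes (correlations 0.024, -0.041 and 0.023). These values gave no sign of pairing by number, but a link that touches few genes could not be seen this way. The replicate block gave 472 such genes and changed no call of the 9. With the block the sarcomere partners had 1 such member, the actins 1, the muscle regulators 0 and the S-adenosylmethionine cycle 0. With 1 library left out these lists of 10, 6, 11 and 15 tested genes had 1 to 2, 0 to 3, 0 to 0 and 0 to 2 such members. The chromatin lysine methyltransferases had 0 to 1 of 20, the PRMT cofactors 0 to 1 of 6 and the arginine-methylated proteins 0 to 2 of 16. The 3 actins came from the fit without WT-labelled library 1, where 1356 of all 11383 genes were called, 1064 of them lower. Depth limits Smyd3 and Smyd5 most, at 48 to 109 fragments.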

Other observations

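Suv39h2, which encodes a histone H3 lysine methyltransferase of heterochromatin, lay below the filter of 1 FPKM and was not tested. It was at 0.872, 0.899 and 1.06 FPKM in WT-labelled libraries 1, 2 and 3 (25, 26 and 25 fragments) and at 0.271, 0.575 and 0.310 FPKM in the KO-labelled ones (7, 16 and 7 fragments). The labels did not overlap, with an exact two-sided permutation p of 0.1, the smallest that 3 against 3 can give, and the gene was picked after its values were seen. Its paralog Suv39h1 was at 1.43 to 2.14 FPKM in the WT-labelled libraries and at 1.22 to 1.60 FPKM in the KO-labelled ones, which overlap.

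Other values were likewise picked after they were seen. The HSP90 gene Hsp90aa1 was at 3.45, 51.2 and 3.72 FPKM in the WT-labelled libraries and at 2.26, 2.26 and 2.88 FPKM in the KO-labelled ones, without overlap (log2 difference -1.58, SE 0.82, limma unadjusted p = 0.0884, adjusted p = 0.988), while its paralog Hsp90ab1 was at 950.3 to 1098 FPKM in all 6. Actc1, the cardiac actin that adult skeletal muscle expresses weakly, was at 234 and 185 FPKM in WT-labelled libraries 1 and 3 and at 59.4 to 99.2 FPKM in the other 4. Myom3, the M-band protein gene of slow and intermediate fibres, was at 12.9, 30.4 and 27.8 FPKM in the WT-labelled libraries and at 13.9, 14.9 and 3.88 FPKM in the KO-labelled ones (log2 difference -1.15, limma unadjusted p = 0.0382, adjusted p = 0.988). The 6 slow fibre markers summed to 512, 549.5 and 272 FPKM and to 311, 359.6 and 242 FPKM in the same order; their part in the values of Myom3 was not tested. Pemt, whose enzyme uses S-adenosylmethionine to make phosphatidylcholine, was at 3.09 ± 0.561 and 2.1 ± 0.326 FPKM (SD, n = 3 each), without overlap between labels, on 11 to 21 fragments (log2 difference -0.39, limma unadjusted p = 0.0334, adjusted p = 0.988).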
